A study of Danio rerio with 6 samples.

Results

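Genes of cytochrome P450 families 2 and 3 and of the conjugating enzymes were read in whole zebrafish embryos at 48 h after fertilization. A gene was counted when its name in a table of Ensembl gene names, with case ignored, began with cyp2, cyp3a, cyp3c, gst, mgst, sult or ugt, or was nr1i2, por or ephx1. This gave 119 of the 24462 genes in the deposited table. They fell into 37 CYP2 genes, 5 CYP3 genes, 17 glutathione transferase (GST) genes, 5 microsomal glutathione transferase (MGST) genes, 15 sulfotransferase (SULT) genes, 23 UDP-glycosyltransferase (UGT) genes and 4 single genes. The prefix cyp2 also took 13 genes of families CYP20 to CYP27, whose enzymes act mostly on retinoids, vitamin D and sterols rather than on foreign chemicals, and these are given apart. UGT8, known in mammals as the galactosyltransferase of myelin lipids, and GSTZ1, an enzyme of tyrosine breakdown, likewise entered by their prefix. The 119 genes carry 113 symbols, because MGST1, POR, GSTM3 and CYP27A1 each belong to more than 1 identifier. Reads that match near-identical copies may be split between them, so separate values of such copies are uncertain.

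The FBSA group had 3 libraries of Tropical 5D wild-type embryos held in FBSA (perfluorobutane sulfonamide, a perfluorinated compound with a short carbon chain) at 47 µM, and the control group had 3 libraries of the same line held in the solvent alone. Both groups carried 0.5% methanol, had the chorion removed at 4 h, were exposed without renewal from 8 h and were harvested at 48 h, and each library came from 10 pooled embryos. The comparison asks how the exposure altered transcript levels, and its p-values reflect only how far these pools spread, since separate clutches are not stated. Values are normalized counts, that is, 3′ end reads per gene divided by a size factor for each library, and 1 read was worth 0.838 to 1.19 normalized counts. A 3′ kit counts transcript ends, so the counts were not divided by gene length. The libraries held 23906021 to 33356411 reads. Along the leading principal component of all tested genes, with 34.3% of the variance, FBSA replicate 2 (54) and control replicate 2 (−65.5) stood farthest apart, while FBSA replicate 3 (2.5) and control replicate 1 (−2.5) lay side by side.

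Cytochromes P450 of families 2 and 3 are haem enzymes of the endoplasmic reticulum that insert oxygen into lipophilic compounds, with electrons passed from NADPH by the reductase encoded by por. Conjugating enzymes then attach glutathione (GST and MGST), sulfate (SULT) or a sugar (UGT), which makes most products easier to excrete. In vertebrates the pregnane X receptor, encoded by nr1i2, senses many drugs and raises transcription of CYP3A genes. The liver and the intestine are the main sites of these enzymes in adult fish, and both organs are still forming in the embryo at the age sampled here.

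Of the enzyme genes tested, 1 rose with exposure and the others did not pass the test. MGST1 (ENSDARG00000022165), a membrane enzyme that conjugates glutathione and reduces lipid hydroperoxides in mammals, had 2516, 2443 and 2177 normalized counts in FBSA replicates 1, 2 and 3, against 1454, 1631 and 1519.6 in control replicates 1, 2 and 3. Every FBSA pool lay above every control pool, and the means were 2379 ± 179 and 1535 ± 89.5 normalized counts (SD, n = 3 each). The increase was 1.55-fold (log2 fold change 0.63 ± 0.11 SE, limma with Benjamini-Hochberg adjustment over all genes tested, adjusted p = 0.020). The call was lost when FBSA replicate 1 (limma adjusted p = 0.118), FBSA replicate 2 (0.0827), control replicate 1 (0.0656) or control replicate 3 (0.0912) was left out. It was kept when FBSA replicate 3 (0.0357) or control replicate 2 (0.0193) was left out, and over all alternatives its limma adjusted p lay between 0.0142 and 0.118. In pooled whole embryos, more cells of a type and more RNA per cell cannot be told apart.

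Of the 119 genes, 76 reached 10 normalized counts in 3 or more of the libraries and were tested. Of these 76, 1 rose and 0 fell, whereas of all 16890 genes tested 96 rose (0.568%) and 23 fell (0.136%). A second method, limma-voom on whole reads, also called 1 higher and 0 lower. At an unadjusted p under 0.05 the enzyme genes numbered 16 higher and 1 lower, or 21.1% and 1.32% of those tested, beside 7.34% and 6.25% of all genes tested. The 15 other higher genes had limma adjusted p-values from 0.168 to 0.362 and are described by their values only. Among the 76, 49 had a positive log2 fold change, which is 64.5% beside 49.8% of all genes, and their median was 0.19 beside −0.0009. In 13 genes every FBSA library lay above every control library, and in 2 every FBSA library lay below, which is 17.1% and 2.63% beside 10.0% and 9.91% of all genes tested. Genes that pass this filter on level in only 1 group had to differ, so these counts describe the 76 and not all 119. Of the 76, 2 reached 10 normalized counts in all libraries of 1 group and in none of the other, namely cyp3a65 with FBSA and gstp1.1 in control. Without these 2, the numbers at an unadjusted p under 0.05 were 15 higher and 0 lower of 74. Without the CYP20 to CYP27 genes, 13 of 68 were higher and 1 lower at an unadjusted p under 0.05, and the median log2 fold change was 0.20.

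The 2 libraries numbered 2 often held the extreme values. Control replicate 2 was the lowest of the 6 libraries in 26 of the 76 genes, or 34.2% beside 23.8% of all genes tested. FBSA replicate 2 was the highest in 22 of the 76, or 28.9% beside 21.7%. The 16 higher genes at an unadjusted p under 0.05 became 8 with libraries scaled to their total reads. They became 5 with FBSA replicate 2 left out, 7 with control replicate 2 left out and 4 with both left out. Over all 119 genes the summed normalized counts were 32787, 35480 and 36142 in the FBSA libraries, against 30218, 25723 and 30736 in the control libraries, a ratio of means of 1.20, or 1.14 without control replicate 2. Such values were kept for the 28 tested genes named by the rule in the processing section. Where leaving out single libraries moved 1 of these by over 1.5 times, the values are given with that gene or in the closing section. For all other genes in the text such values are not given, so how far those rest on a single library is not shown.

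**Figure D1:**
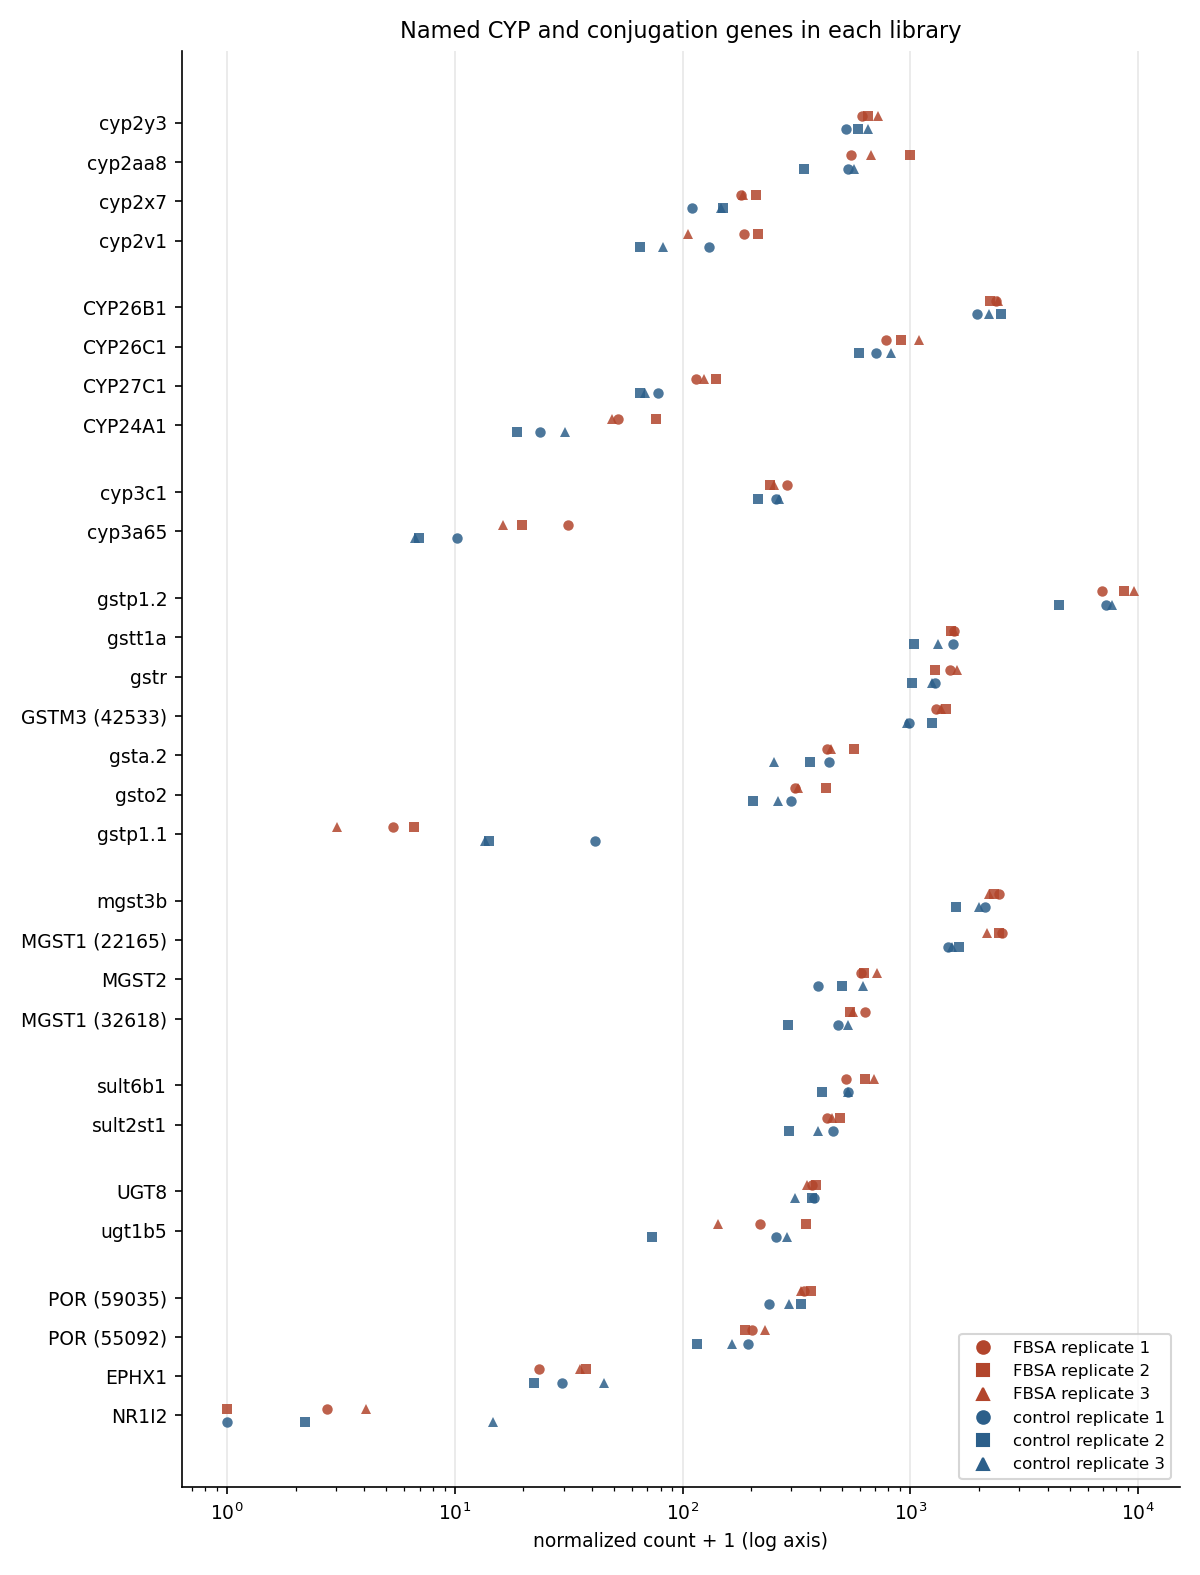
Normalized count plus 1 (log axis) of 29 named genes in each library, FBSA in red above control in blue, with circles, squares and triangles for replicates 1, 2 and 3, and closing digits of the identifier in brackets where genes share a symbol. MGST1 (ENSDARG00000022165) has its FBSA points between 2177 and 2516 and its control points between 1454 and 1631 before the 1 is added, with no overlap.

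Among the oxidizing enzymes, the 37 CYP2 genes showed no common direction. Of 20 tested, 0 rose and 0 fell. At an unadjusted p under 0.05, 3 of the 20 were higher and 0 lower, beside 7.34% and 6.25% of all genes tested. Of their log2 fold changes, 9 were positive and 11 negative, and the median was −0.04. Summed over the CYP2 family, the normalized counts were 2583, 3395 and 2904 in the FBSA libraries, against 2573, 2271 and 2684 in the control libraries, so the groups overlapped. The single gene with the largest share of these counts was cyp2y3, with 22.8% of the sum. It had 612, 651 and 716 normalized counts with FBSA and 518, 588 and 648 in control (log2 fold change 0.18 ± 0.14 SE, limma adjusted p = 0.621). The 95% interval of that difference ran from −0.13 to 0.48, and the log2 fold change was 0.12 without FBSA replicate 3 and 0.09 without control replicate 1.

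The 3 CYP2 genes with an unadjusted p under 0.05 were cyp2aa8, cyp2x7 and cyp2v1. Counts of cyp2aa8 were 546, 997 and 672 in the FBSA libraries, against 531, 342 and 566 in the control libraries. FBSA replicate 2 was the highest and control replicate 2 the lowest library, and FBSA replicate 1 lay below control replicate 3 (log2 fold change 0.61 ± 0.23 SE, limma adjusted p = 0.275). Its log2 fold change was 0.37 without FBSA replicate 2, 0.38 without control replicate 2 and 0.14 without both. Counts of cyp2x7 were 180.1, 208 and 183 with FBSA and 109, 149 and 147 in control (log2 fold change 0.50 ± 0.21 SE, limma adjusted p = 0.321). It was the only CYP2 gene tested in which the groups did not overlap. That is 5.0% with FBSA above and 0% with FBSA below, beside 10.0% and 9.91% of all genes tested. For cyp2v1 the FBSA libraries held 184, 214 and 105 normalized counts and the control libraries 130.0, 64.1 and 80.6 (log2 fold change 0.87 ± 0.33 SE, limma adjusted p = 0.27). Its FBSA replicate 3 lay inside the range of the controls, and without both libraries numbered 2 the log2 fold change was 0.44. A CYP2 gene that missed that threshold, cyp2k16, had 99.6, 141 and 130.1 normalized counts with FBSA, against 90.6, 45.1 and 103 in control, with the groups overlapping and a log2 fold change of 0.70 ± 0.32 SE.

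Of the 11 CYP2 genes with a negative log2 fold change, 0 had an unadjusted p under 0.05. The most negative was that of cyp2p9, at −0.95 ± 0.72 SE, with 11.3, 21.6 and 3.05 normalized counts in the FBSA libraries, against 32.7, 15.4 and 13.6 in the control libraries. CYP2R1, the vitamin D 25-hydroxylase of mammals, had 81.4, 7.51 and 28.5 normalized counts with FBSA and 52.8, 33.2 and 45.4 in control. Both extremes of CYP2R1, the highest and the lowest library, were in the FBSA group. The more abundant cyp2p10, at 147, 205 and 168 with FBSA and 199, 257 and 176 in control, overlapped between the groups (log2 fold change −0.28 ± 0.22 SE, limma adjusted p = 0.609).

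Family 3 held 5 genes, of which 3 were tested and 0 passed. The most read member was cyp3c1, with 285, 240.3 and 250.0 normalized counts in the FBSA libraries, against 256, 212 and 265 in the control libraries, and it made up 89.4% of the family's counts. Its groups overlapped, and the 95% interval of its log2 fold change ran from −0.30 to 0.47 around 0.08 (limma adjusted p = 0.874). The drug-metabolizing cyp3a65 had 30.3, 18.8 and 15.2 normalized counts in the FBSA libraries and 9.22, 5.93 and 5.68 in the control libraries, which rest on 70 reads with FBSA and 21 in control. All 3 FBSA libraries of cyp3a65 lay above all 3 controls, and the highest was FBSA replicate 1. The gene passed the filter on level through the FBSA group alone, so this separation is in part set by the filter. Its log2 fold change was 1.47 ± 0.61 SE and did not pass after adjustment (limma adjusted p = 0.32). The tested cyp3c4 was at 0 in FBSA replicates 1 and 3 and in control replicate 1, so no direction was read from it.

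The gene of the pregnane X receptor was barely read. NR1I2 had 1.73, 0 and 3.05 normalized counts with FBSA and 0, 1.19 and 13.6 in control, which rest on 5 reads with FBSA and 13 in control, and it was not tested. Nearly all of its control reads came from control replicate 3. POR is the symbol of 2 identifiers. ENSDARG00000059035 had 340.2, 366 and 330.3 normalized counts in the FBSA libraries, against 238, 329.8 and 291 in the control libraries, with FBSA replicate 3 only just above control replicate 2 (log2 fold change 0.28 ± 0.17 SE, limma adjusted p = 0.51). Its log2 fold change was 0.16 without control replicate 1. ENSDARG00000055092 had 199.99, 187 and 229 with FBSA and 193, 115 and 164 in control, and the groups overlapped (log2 fold change 0.41 ± 0.23 SE, limma adjusted p = 0.462). Without control replicate 2 this value was 0.20 on the log2 scale. EPHX1, which encodes the microsomal epoxide hydrolase that opens epoxides left by P450 enzymes, stayed between 21.4 and 44.3 normalized counts in all 6 libraries (log2 fold change 0.02 ± 0.43 SE).

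The CYP20 to CYP27 genes were set apart by name, as those with a digit after cyp2. Of 13, 8 were tested, and 0 rose and 0 fell. At an unadjusted p under 0.05, 3 were higher and 0 lower, or 37.5% and 0% beside 7.34% and 6.25% of all genes tested. Sums of the 13 genes were 4334, 4353 and 4705 normalized counts in the FBSA libraries, against 3663, 4284 and 4046 in the control libraries, which were narrowly apart. CYP24A1, the vitamin D 24-hydroxylase and a known target of the vitamin D receptor, had 51.1, 75.1 and 47.8 normalized counts in the FBSA libraries, against 22.6, 17.8 and 29.5 in the control libraries. The groups did not overlap (log2 fold change 1.28 ± 0.39 SE, limma adjusted p = 0.179). CYP27C1, the retinol desaturase of the fish retina, had 113, 139 and 123 with FBSA and 77.1, 64.1 and 67.0 in control, again without overlap (log2 fold change 0.84 ± 0.24 SE, limma adjusted p = 0.168). Among the enzyme genes already at an unadjusted p under 0.05, these 2 and MGST1 (ENSDARG00000022165) kept it with each of the 6 libraries left out in turn. Those genes were picked from the same libraries, and the share over all genes tested was not computed.

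The CYP26 enzymes, which break down retinoic acid, were better read. CYP26B1 took 53.9% of the counts of these 13 genes, with 2377, 2235 and 2419.5 normalized counts with FBSA and 1964, 2487 and 2204 in control. Its groups overlapped, and the 95% interval of the log2 fold change ran from −0.16 to 0.33. CYP26C1 had 778, 905 and 1085 in the FBSA libraries, against 704, 592 and 817 in the control libraries (log2 fold change 0.39 ± 0.16 SE, limma adjusted p = 0.316). For this gene the library of FBSA replicate 1 lay below that of control replicate 3. CYP26A1 lay closer, at 338, 306 and 375 with FBSA and 283, 332 and 317 in control (log2 fold change 0.13 ± 0.16 SE). The log2 fold change of CYP20A1 was 0.06 ± 0.16 SE, and cyp27a1.1 had one of −0.50 ± 0.41 SE.

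Glutathione transferases gave the largest counts among the conjugating enzymes. Of 16 cytosolic and other GST genes tested, 0 rose and 0 fell. At an unadjusted p under 0.05, 5 were higher and 1 lower, or 31.2% and 6.25% beside 7.34% and 6.25% of all genes tested. Of the 16 log2 fold changes, 12 were positive, beside 49.8% of all genes tested, and the median of the 16 was 0.25. Their summed normalized counts were 14574, 16346 and 17615 in the FBSA libraries, against 14075, 10604 and 14125 in the control libraries. The sums did not overlap, but the gap between FBSA replicate 1 and control replicate 3 was small beside the distance of control replicate 2 from the other controls. The ratio of the means was 1.25, and 1.15 without control replicate 2, an alternative chosen after seeing the data.

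The pi class gene gstp1.2, one of the main detoxifying transferases of zebrafish embryos, held 51.1% of the GST counts. It had 6921, 8707 and 9624 normalized counts in the FBSA libraries, against 7250.1, 4482 and 7675 in the control libraries. FBSA replicate 1 lay inside the control range (log2 fold change 0.41 ± 0.18 SE, limma adjusted p = 0.357), and leaving out control replicate 2 the log2 fold change was 0.16. Its copy gstp1.1 had 4.33, 5.63 and 2.03 normalized counts with FBSA, against 40.2, 13.05 and 12.5 in control, from 13 reads with FBSA and 70 in control. All FBSA libraries of gstp1.1 lay below all controls (log2 fold change −2.06 ± 0.76 SE, limma adjusted p = 0.263), and control replicate 1 alone stood far above the other 2 controls. This gene passed the filter through the control group alone, so its separation is in part set by the filter. Without control replicate 1 its log2 fold change was −1.54 and its unadjusted p was 0.14 (limma).

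Genes of the theta and rho classes had positive log2 fold changes and did not pass. The rho class gene gstr, a class found in fish and other aquatic animals, had 1485, 1285 and 1598 normalized counts with FBSA, against 1275, 1014 and 1244 in control, with all FBSA libraries above the controls (log2 fold change 0.31 ± 0.13 SE, limma adjusted p = 0.336). The value of gstr was 0.20 without control replicate 2. For the theta class gene gstt1a the values were 1560.1, 1502 and 1555 in the FBSA libraries and 1542, 1034 and 1319.7 in the control libraries. The FBSA pools of gstt1a were close together and the controls widely spread, and the groups overlapped (log2 fold change 0.26 ± 0.14 SE, limma adjusted p = 0.448). Its log2 fold change was 0.11 without control replicate 2 and 0.40 without control replicate 1. Its paralogue gstt1b had 376, 390.5 and 373 with FBSA and 304, 244 and 357 in control (log2 fold change 0.35 ± 0.17 SE), without overlap.

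Of the 3 identifiers named GSTM3, of the mu class, 1 was higher at an unadjusted p under 0.05. ENSDARG00000042533 had 1288, 1433 and 1366 normalized counts with FBSA, against 982, 1241 and 963 in control, and the groups did not overlap (log2 fold change 0.37 ± 0.13 SE, limma adjusted p = 0.243). The log2 fold change was −0.20 ± 0.20 SE for ENSDARG00000088116 and 0.21 ± 0.37 SE for ENSDARG00000029473. Alpha class gsta.1 had 1315, 1259 and 1392 with FBSA and 1152, 1136 and 1127 in control, a narrow range in each group without overlap (log2 fold change 0.21 ± 0.11 SE, limma adjusted p = 0.427). Its copy gsta.2 had 430.3, 564 and 446 with FBSA, against 437, 361 and 251 in control, where FBSA replicate 1 lay below control replicate 1 (log2 fold change 0.48 ± 0.21 SE, limma adjusted p = 0.33). Without control replicate 3 the value of gsta.2 was 0.26.

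The omega class gene gsto2 had 312, 426 and 320.1 normalized counts in the FBSA libraries, against 297, 203 and 260.1 in the control libraries, with the groups apart (log2 fold change 0.48 ± 0.20 SE, limma adjusted p = 0.313). Without FBSA replicate 2 the log2 fold change of gsto2 was 0.34, without control replicate 2 it was 0.33, and without both 0.18. The other omega gene, gsto1, was at 2.60, 5.63 and 21.3 with FBSA and 10.1, 19.0 and 19.3 in control, and its groups overlapped. The kappa class gene gstk1 overlapped as well, at 320.3, 156 and 213 with FBSA and 229, 242 and 245 in control (log2 fold change −0.12 ± 0.24 SE). The log2 fold change of GSTZ1 was 0.19 ± 0.21 SE, and that of gstt2 was 0.41 ± 0.32 SE.

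All 5 microsomal transferases, which are membrane proteins unrelated in sequence to the cytosolic ones, were tested. MGST1 (ENSDARG00000022165) rose, and 3 others were higher at an unadjusted p under 0.05 and did not pass after adjustment. Together these 4 were 80.0% of the family, beside 7.34% of all genes tested, and 0 were lower, beside 6.25%. The median log2 fold change of the 5 genes was 0.38. Summed, the 5 genes had 7707, 7287 and 7105 normalized counts in the FBSA libraries, against 6316, 5227 and 6249 in the control libraries, with the groups apart. The gene mgst3b had 2451, 2320.5 and 2210.2 with FBSA and 2119.6, 1586 and 1993 in control (log2 fold change 0.30 ± 0.12 SE, limma adjusted p = 0.311). Its FBSA libraries all lay above the controls, and without control replicate 2 the log2 fold change was 0.18. MGST2, which in mammals can also make leukotriene C4, had 604, 624 and 714 with FBSA, against 393, 498 and 618 in control, with FBSA replicate 1 below control replicate 3 (log2 fold change 0.38 ± 0.17 SE, limma adjusted p = 0.355). For MGST2 it was 0.22 without control replicate 1.

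The other identifier named MGST1, ENSDARG00000032618, had 632, 539.8 and 556 normalized counts with FBSA, against 479, 288 and 529 in control. Its groups were narrowly apart and control replicate 2 stood well below the rest (log2 fold change 0.46 ± 0.21 SE, limma adjusted p = 0.362). Without control replicate 2 its log2 fold change was 0.19. MGST3 was the exception in direction, with 1504, 1359 and 1448 with FBSA and 1871, 1224 and 1589 in control, with the FBSA range inside the control range (log2 fold change −0.10 ± 0.15 SE, limma adjusted p = 0.808).

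**Figure D2:**
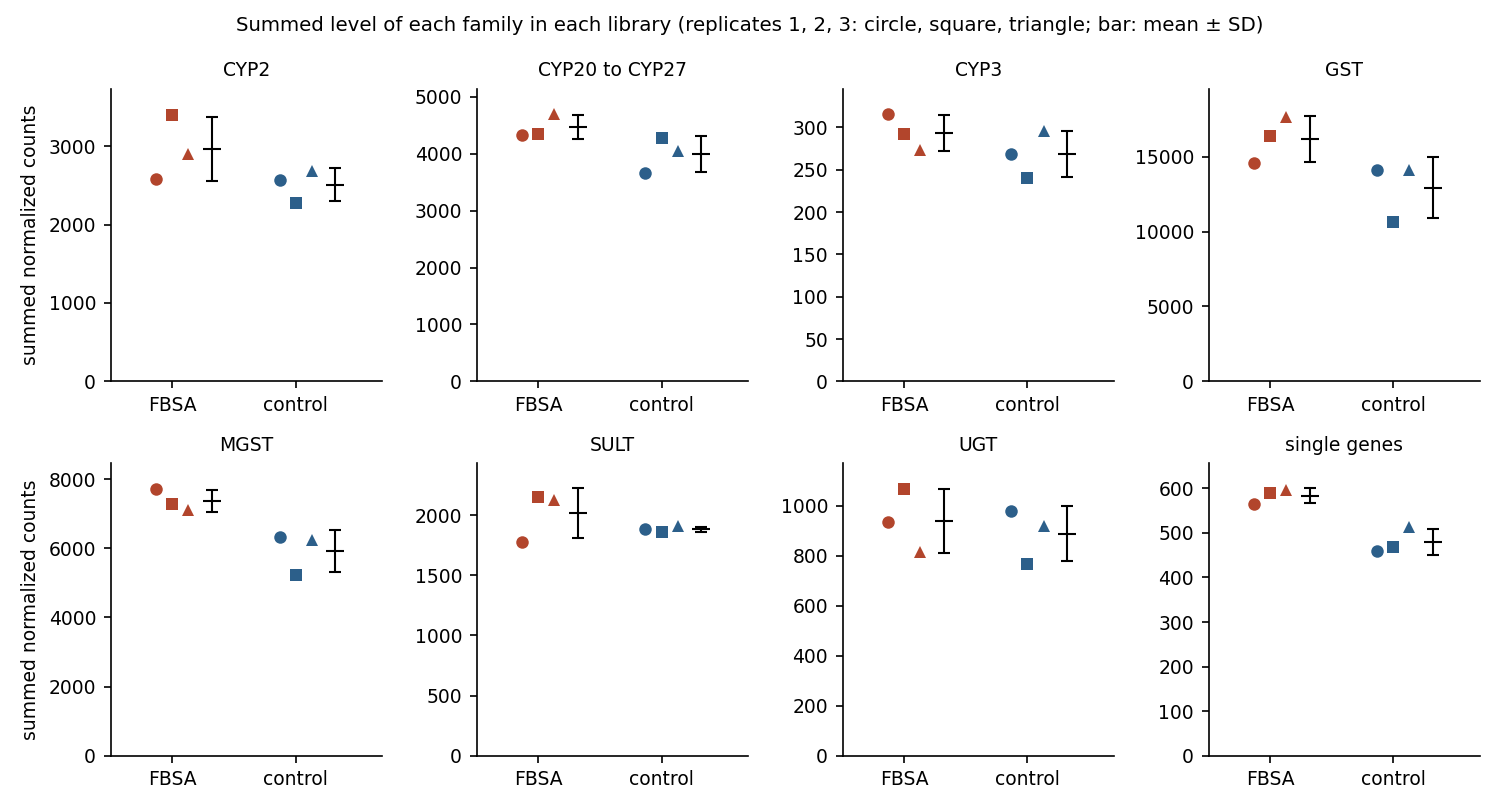
Summed normalized counts of each family in each library, FBSA left of control, with replicates 1, 2 and 3 as circle, square and triangle, the mean ± SD as a bar, and each vertical axis starting at 0. The MGST sums lie at 7105 to 7707 with FBSA and 5227 to 6316 in control, while the UGT sums overlap.

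No sulfotransferase gene passed the test in either direction. Of 15 SULT genes, 10 were tested, and 0 rose and 0 fell. At an unadjusted p under 0.05 also none was higher or lower, beside 7.34% and 6.25% of all genes tested. The SULT sums were 1775, 2150 and 2129 normalized counts with FBSA, against 1881, 1861 and 1906 in control, and FBSA replicate 1 was the lowest of the 6 libraries. The most read was sult6b1, with 519, 628 and 689 in the FBSA libraries, against 529, 407 and 530.4 in the control libraries (log2 fold change 0.32 ± 0.16 SE, limma adjusted p = 0.416). Its 95% interval ran from −0.03 to 0.68. Next came sult2st1, of the steroid-sulfating family 2, at 430.3, 489 and 453 with FBSA and 454, 292 and 392 in control (log2 fold change 0.29 ± 0.18 SE, limma adjusted p = 0.511). Both genes had control replicate 2 as their lowest library, without which the log2 fold change was 0.20 for sult6b1 and 0.11 for sult2st1. The family 1 genes sult1st1 and sult1st4, of the phenol-sulfating type, had log2 fold changes of −0.27 ± 0.22 SE and −0.07 ± 0.22 SE. SULT4A1, a neuronal member with no well defined substrate, had 187, 185 and 243 with FBSA, against 226, 337 and 223 in control (log2 fold change −0.34 ± 0.21 SE, limma adjusted p = 0.526).

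Sugar-transferring enzymes were the least read of the conjugating families. Of 23 UGT genes, 11 were tested, 0 rose and 0 fell, and 12 were too low to test. At an unadjusted p under 0.05 none of the 11 was higher or lower, beside 7.34% and 6.25% of all genes tested. The UGT sums were 934, 1068 and 814 normalized counts with FBSA, against 980.2, 766 and 919.9 in control, with overlap. UGT8 alone held 39.3% of the family's counts and overlapped between the groups, at 369, 384 and 351 with FBSA and 375, 369 and 309 in control (95% interval of the log2 fold change −0.27 to 0.41). The family 1 gene ugt1b5 varied more within each group than between them, at 216, 348 and 142 with FBSA and 255, 72.4 and 286 in control. Its log2 fold change of 0.34 ± 0.45 SE was −0.29 without control replicate 2. UGT1A1, named after the bilirubin-conjugating enzyme of mammals, had 93.5, 68.5 and 57.9 with FBSA, against 56.2, 16.6 and 68.1 in control (log2 fold change 0.83 ± 0.47 SE, limma adjusted p = 0.476). In ugt5b4, of a UGT family found in fish, every FBSA library lay below every control, at 12.99, 29.1 and 16.3 with FBSA and 36.1, 33.2 and 39.7 in control (log2 fold change −0.94 ± 0.45 SE, limma adjusted p = 0.386).

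**Figure D3:**
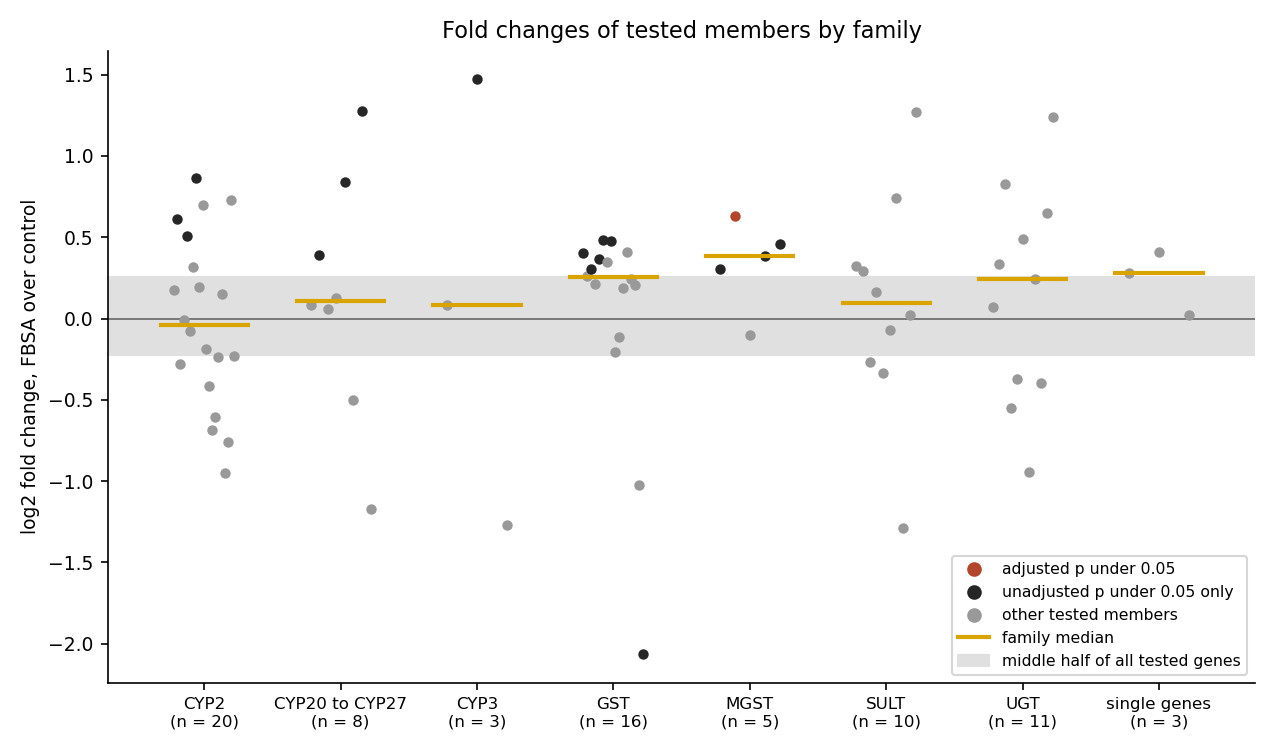
Log2 fold change (FBSA over control) of the 76 tested genes by family, with yellow bars at the family medians and a grey band from −0.22 to 0.25 between the lower and upper quartiles of all 16890 genes tested. MGST1, in red at 0.63, is the point past the adjusted threshold, and black points passed only an unadjusted p under 0.05.

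Too few reads were found to test 43 of the 119 genes. They had between 1 and 55 reads over all 6 libraries together, and 7 of them had a read in 1 library only. By family these were 17 of 37 CYP2 genes, 5 of 13 CYP20 to CYP27 genes, 2 of 5 CYP3 genes, 1 of 17 GST genes, 0 of 5 MGST genes, 5 of 15 SULT genes, 12 of 23 UGT genes and NR1I2. Among them, cyp2k19 had 0 reads in the FBSA libraries together and 8 in the control libraries, and ugt1b1 had 1 with FBSA and 8 in control. The steroid 21-hydroxylase gene cyp21a2, needed for cortisol synthesis, had 3.46, 18.8 and 10.2 normalized counts with FBSA and 0.839, 4.74 and 2.27 in control, with overlap. In sult1st9, with 32 reads with FBSA and 11 in control, every FBSA library lay above every control. Of the 43 untested genes, 3 had groups that did not overlap, a count for which no share over all untested genes was computed. They were sult1st9 above and cyp2k19 and ugt1b1 below. These genes and cyp21a2 were chosen after their values were seen, and no fold was computed for them.

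Many of these genes stand in runs of neighbouring copies in the RefSeq gene order (assembly GRCz12tu, another build than that of the deposited table, used here only for which genes adjoin, with at most 2 other protein-coding genes between members). Neighbours differed widely in level. In the cyp2aa run, 10 of 11 genes were matched by symbol, and their mean over all libraries was lowest in cyp2aa7 at 6.97 normalized counts and highest in cyp2aa8 at 609. Of 9 tested there, 4 had a positive and 5 a negative log2 fold change, between −0.60 for cyp2aa2 and 0.73 for the outermost gene, cyp2ae1. At cyp2aa3, on the same run, the FBSA libraries held 126, 166 and 152 and the control libraries 96.4, 129 and 133 normalized counts (log2 fold change 0.31 ± 0.23 SE).

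A second run joins cyp2n13, cyp2ad, cyp2v1, cyp2p and cyp2j20. Its 11 genes were all matched, 6 were tested, and 2 log2 fold changes were positive and 4 negative, from −0.95 in cyp2p9 to 0.87 in cyp2v1. The gene next to cyp2v1 on one side, cyp2ad3, had 87.4, 139.9 and 124 with FBSA and 148, 72.4 and 94.3 in control (log2 fold change 0.19 ± 0.30 SE), and the gene on the other side, cyp2ad2, had 0 reads in 4 of 6 libraries. In the cyp3c run the mean level was lowest in cyp3c2 at 2.84 normalized counts and highest in cyp3c1 at 251. The adjoining pairs gsta.2 and gsta.1, and sult2st1 and sult2st2, had positive log2 fold changes in both genes, while gstp1.1 and gstp1.2, and gsto1 and gsto2, had opposite signs. None of these differences between neighbours was tested.

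**Figure D4:**
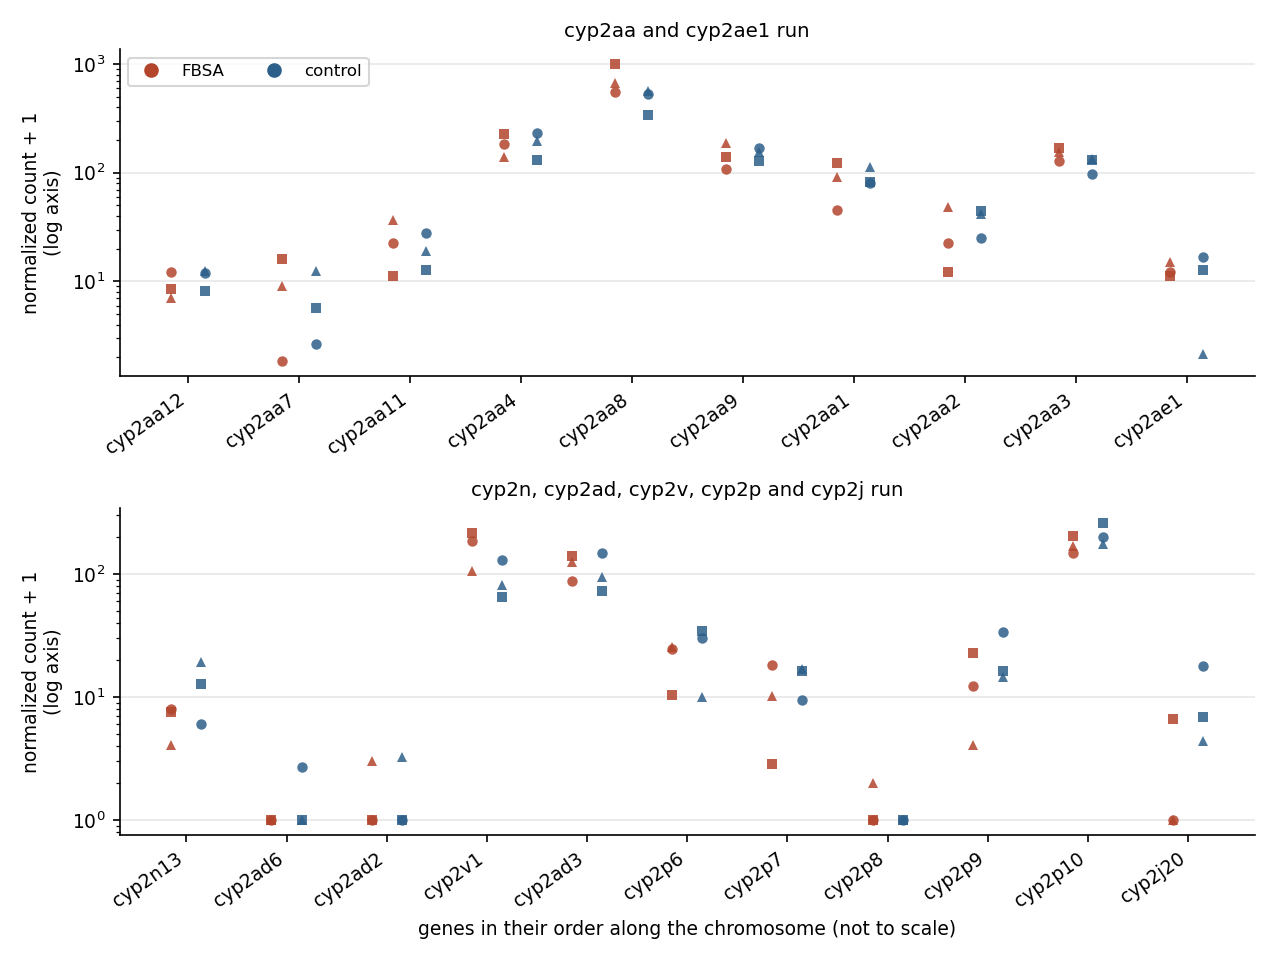
Normalized count plus 1 (log axis) of the genes in 2 runs of neighbouring CYP2 genes, in chromosomal order and not to scale, with FBSA in red left of control in blue and circles, squares and triangles for replicates 1, 2 and 3. Along the cyp2aa run the mean level over all libraries goes from 6.97 normalized counts in cyp2aa7 to 609 in cyp2aa8.

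Genes that supply or surround these enzymes were read from a list of 93 symbols, which matched 91 genes of the table. Of 76 tested, 0 rose and 0 fell (limma and limma-voom), while 2 were higher and 3 lower at an unadjusted p under 0.05, or 2.63% and 3.95% of those tested beside 7.34% and 6.25% of all genes tested. Their median log2 fold change was −0.01. The higher ones were abcc2, which encodes a pump that exports glutathione and glucuronide conjugates, and VDR (ENSDARG00000070721), a vitamin D receptor gene. Counts of abcc2 were 197, 242 and 192 in the FBSA libraries, against 99.8, 136 and 129 in the control libraries, with no overlap (log2 fold change 0.79 ± 0.22 SE, limma adjusted p = 0.147). VDR had 3319, 3469 and 4027 normalized counts with FBSA, against 1873, 2753 and 3038 in control, also without overlap (log2 fold change 0.52 ± 0.16 SE, limma adjusted p = 0.182). Another VDR identifier, ENSDARG00000112923, had −0.02 ± 0.50 SE with overlap, and ENSDARG00000099483 was too low to test.

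The 3 lower genes of that list were ggt5a, of the gamma-glutamyltransferase family that cleaves glutathione, the uptake transporter gene slco1d1 and SLC35D1 (ENSDARG00000027986), which carries UDP-sugars into the endoplasmic reticulum. Levels of ggt5a were 66.7, 47.9 and 49.8 with FBSA, against 113, 91.3 and 103 in control, without overlap (log2 fold change −0.90 ± 0.28 SE, limma adjusted p = 0.181). The values of slco1d1 were 140.3, 103 and 132 with FBSA and 146, 216 and 204 in control, without overlap (log2 fold change −0.58 ± 0.23 SE, limma adjusted p = 0.297). SLC35D1 had 158, 118 and 112 with FBSA, against 188, 189 and 160.1 in control, where FBSA replicate 1 lay just below control replicate 3 (log2 fold change −0.48 ± 0.22 SE, limma adjusted p = 0.368). The other SLC35D1 identifier, ENSDARG00000011973, had 0.08 ± 0.22 SE with overlap. The aryl hydrocarbon receptor gene ahr2, at a log2 fold change of 0.00 ± 0.15 SE, and GCLC, which encodes the limiting enzyme of glutathione synthesis, at −0.09 ± 0.13 SE, differed by less than their errors. UGDH, which makes the UDP-glucuronate that UGT enzymes use, had −0.08 ± 0.29 SE. For sulfate activation, PAPSS2 (ENSDARG00000056600) had −0.01 ± 0.15 SE.

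Markers of the tissues that carry these enzymes were set beside the results. Of 10 liver genes tested, 9 log2 fold changes were positive, 0 passed after adjustment, and the median was 0.16. At an unadjusted p under 0.05, 2 of the 10 were higher and 0 lower, beside 7.34% and 6.25% of all genes tested. The higher ones were serpina1 (log2 fold change 0.42 ± 0.11 SE, limma adjusted p = 0.109) and FGG (0.29 ± 0.10 SE, 0.206). In serpina1, FGG, FGB and apoa2 every FBSA library lay above every control, or 40.0% beside 10.0% of all genes tested. Summed counts of the 10 liver genes were 123719 to 139737 in the FBSA libraries and 113041 to 118098 in the control libraries. The groups of sums were apart, with or without apoa2, the most read of these genes. The defining liver gene fabp10a was low, at 2.60, 0 and 41.7 with FBSA and 16.8, 35.6 and 22.7 in control, with overlap. It was the 1 liver gene with a negative log2 fold change, at −2.22 ± 1.11 SE (limma adjusted p = 0.41). Of 8 intestine genes, 2 log2 fold changes were positive and 6 negative, with a median of −0.33, and the sums were 10733 to 11982 with FBSA and 9522 to 12792 in control. The largest negative value was that of VIL1, at −0.96 ± 0.73 SE. FABP2 was the 1 intestine gene with an unadjusted p under 0.05, or 12.5% higher beside 7.34% of all genes tested. It had 1834, 2417 and 2066 with FBSA, against 1301, 1337 and 1755 in control (log2 fold change 0.53 ± 0.14 SE, limma adjusted p = 0.144). Of 5 yolk syncytial layer genes, vtg1 and TTR were at or near 0 and not tested. Of the 3 tested, apoa1b had every FBSA library above every control, or 33.3% beside 10.0% of all genes tested. MTTP had every FBSA library below every control, or 33.3% beside 9.91%, and apobb.1 overlapped. Counts of MTTP were 159, 180 and 160 with FBSA, against 186, 243 and 194 in control. Its log2 fold change was −0.31 ± 0.20 SE (limma adjusted p = 0.523). Sums of the 5 genes were 87820 to 88874 with FBSA and 65364 to 82844 in control. Without apoa1b the yolk sums were 38699.5 to 39080.2 with FBSA and 30279.95 to 45886 in control, and overlapped. The 6 pronephros genes summed to 6154 to 6807 with FBSA and 4897 to 5373 in control, and 1 of them, the phosphate transporter gene SLC20A1 (ENSDARG00000010641), rose, with 2533, 2767 and 2697 normalized counts with FBSA against 1289.5, 1032 and 1679.7 in control (log2 fold change 1.03 ± 0.15 SE, limma adjusted p = 0.0093). Without that gene the pronephros sums were 3387 to 4110.4 with FBSA and 3575 to 4341 in control, and overlapped. They came mostly from PAX2 (ENSDARG00000028148), with a log2 fold change of −0.10 ± 0.12 SE. Of the 6 genes, 3 were higher and 0 lower at an unadjusted p under 0.05, beside 7.34% and 6.25% of all genes tested. In these 3 every FBSA library lay above every control, and in 0 of the 6 below, beside 10.0% and 9.91% of all genes tested. Of the 6 log2 fold changes, 2 were negative. Besides the gene that rose, the higher ones were SLC12A3 and another SLC20A1 identifier, ENSDARG00000020114, both with the groups apart. SLC12A3 had 103, 188 and 183 with FBSA, against 79.7, 81.8 and 91.99 in control. Its log2 fold change was 0.85 ± 0.27 SE (limma adjusted p = 0.2), and that of ENSDARG00000020114 was 0.63 ± 0.28 SE (0.359). The 5 skin genes summed to 461739 to 540229 with FBSA and 475030 to 512186 in control. Of these 5, 3 log2 fold changes were positive and 2 negative. The keratin genes krt4 (−0.06 ± 0.11 SE), krt5 (−0.18 ± 0.12 SE) and cyt1 (0.10 ± 0.13 SE) overlapped between the groups. The remaining 2 were higher at an unadjusted p under 0.05, or 40.0% beside 7.34% of all genes tested. In these 2 every FBSA library lay above every control, or 40.0% beside 10.0% of all genes tested. The skin gene icn had 49349, 45669 and 50150.4 with FBSA, against 36836, 21397 and 37238 in control (log2 fold change 0.65 ± 0.17 SE, limma adjusted p = 0.135). TP63, the epidermal transcription factor gene, had 2163, 2132 and 2032 with FBSA, against 1695, 1657 and 1747 in control (log2 fold change 0.31 ± 0.10 SE, limma adjusted p = 0.207). The 2 blood genes summed to 19728 to 28536 with FBSA and 20139 to 33862 in control. The part of these tissues and cells in the enzyme results was not tested.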

How the data were processed

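RNA was read from 6 pools of whole embryos with the Lexogen QuantSeq 3′ FWD kit, single end, per the labels' protocols. STAR, HTSeq, DESeq2 and the GRCz11 build are listed, per the submitters' processing notes. Their versions, and the annotation, the strand setting and the rule for reads that match several genes, are not given in the sources used here. For each gene the deposited table holds log2 values with a floor of 6.52, on the scale of a variance-stabilizing transformation. Its header has an empty last cell and the sample names are shifted left by 1 cell, so values were assigned by the order of the names.

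The transformation was undone to normalized counts. Whole reads were recovered for 100.0% of values within 0.1 of a whole number, and the largest distance was 0.0163. Library totals lay between 23906021 and 33356411 reads, and intervals cover the spread between pools. Replicates of a group differed beyond counting noise (chi-square over its degrees of freedom, 10.8 to 34.1 for pairs within a group). Pairs of an FBSA and a control library gave 16.2 to 57.3, so the ranges overlapped.

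Genes that reached 10 normalized counts in 3 or more libraries were tested on log2(normalized count + 1) with limma 3.58.1 (trend, R 4.3.3), and p-values were adjusted by Benjamini-Hochberg over 16890 genes, with a threshold of 0.05. Fold changes on that scale understate those of low genes. Scripts ran in Python 3.11.15 and were checked on simulated data. The plan had assumed normalized values in the deposited table, and the log2 unit was the reason to undo the transformation first. Alternatives were other pseudocounts, filters and scalings, the deposited log2 values, limma-voom, robust moderation, a replicate block and leaving out libraries. Member counts at an unadjusted p under all settings, family ratios without control replicate 2, counts without genes that passed the filter through 1 group only, and marker sums without single genes were added after seeing the data.

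Members and lists were chosen with earlier results of these data known. The genes named are those past the adjusted threshold, those with an unadjusted p under 0.05, the 2 tested genes with most reads in each family, and nr1i2, por, ephx1 and cyp3a65. Other members were named after their values were seen. The name table matched 22817 of 24462 identifiers. It holds 135 genes under the rule, and 16 of them were not analysed here. Promoter and protein sequences were not used here.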

Additional observations from a re-analysis of the deposited data

How the results depend on the processing

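Over 17 alternatives, 474 values of the 28 named and tested genes were recomputed: 459 kept their direction and their side of the threshold, 5 lost the call and 10 reversed. All 5 lost calls were of MGST1 (ENSDARG00000022165), the only one of the 28 with a call to lose, which lost it in 5 of 17 alternatives. For the others, keeping their side of the threshold meant only staying uncalled. With single libraries left out, the log2 fold change of this MGST1 gene stayed between 0.59 and 0.69. The number of enzyme genes that rose was then 0 to 1. Same-numbered libraries did not deviate together (correlations of 0.021, −0.141 and −0.00462), and differently numbered ones had correlations from −0.139 to 0.126. With so few pools these values cannot show whether the pools were paired by clutch or batch. A fit with the replicate number as a block gave MGST1 a limma adjusted p of 0.0943, 0 enzyme genes that rose, and 40 higher and 7 lower among all genes. At an adjusted p under 0.1, 179 genes were higher and 58 lower, and with single libraries left out 46 to 87 were higher and 4 to 23 lower. At an unadjusted p under 0.05, the higher enzyme genes numbered 8 when scaled to total reads, 4 without both libraries numbered 2, and 5 to 17 with single libraries left out. Without the 2 genes that passed the filter through 1 group only, 15 were higher and 0 lower. The lower ones numbered 3 with no filter beyond 1 read, 0 with a mean of 20 or more, 3 without both libraries numbered 2, and 0 to 2 with single libraries left out. The 4 genes that reversed all had differences within their errors. Without single libraries, log2 fold changes ranged from −0.014 to 0.14 for cyp3c1, −0.017 to 0.12 for UGT8, −0.29 to 0.69 for ugt1b5 and −0.21 to 0.30 for EPHX1, and from 0.0006 to 0.17 for CYP26B1. Without both libraries numbered 2 they were −0.62 for ugt1b5 and −0.34 for EPHX1, and EPHX1 had −0.0055 when scaled to total reads. The cause was not tested. The 43 genes with too few reads for the filter were not tested on their own.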
